A study of Mus musculus with 12 samples.

Results

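Opposite-strand transcripts carry the name of a gene on the other DNA strand, followed by the letters os: Kcnmb4os2, for example, lies opposite Kcnmb4. Of the 55453 gene rows of the count table, 321 had symbols ending in these letters. In 300 of them the letters before os were the symbol of another gene, the namesake, either in current use or, in 3 cases, an older symbol (Ict1os for Mrpl58, Zbtb8os for Zbtb8b and Proscos for Plpbp). The partner of Zbtb8os is uncertain: it lies 71217 bases from Zbtb8b and shares 264 exonic bases with Zbtb8a. The other 21 were set aside, 12 of them at or over the minimum level, such as Fos, Icos and Uros. Among the 21, Snhg7os (0.0218 CPM) is annotated as antisense but had no namesake row, and the rest only share the spelling. Of the 300 rows, 75 averaged at least 0.5 CPM (reads scaled to the gene counts of the library) over the 12 libraries and are described here, and 114 had no read at all. The rows nearest to this minimum were Arhgap27os2 at 0.534, Runx2os1 at 0.580 and Ict1os at 0.604 CPM inside it, and Atxn7l1os2 at 0.452, Anxa11os at 0.425 and Pip5k1bos at 0.417 CPM outside. The 75 transcripts belong to 68 namesakes, all of them protein-coding genes. Gene annotation classed 63 of the 75 as antisense, 4 as lincRNA and 4 as processed transcripts. The remaining 4, Wdr83os, Zbtb8os, Cebpzos and Brd3os, were annotated as protein coding, so the name does not mark a noncoding RNA in every case.

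The cells were regulatory T (Treg) cells, which depend on the transcription factor Foxp3 and hold immune responses in check, sorted by flow cytometry as CD4+Foxp3+ from untreated C57BL/6 mice. CNS4 is an enhancer of Foxp3, a gene on the X chromosome. There were 4 groups of 3 libraries each: male CNS4 knockout, male CNS4 floxed (labelled wild type), female CNS4 knockout heterozygotes and female CNS4 floxed heterozygotes. The mice were matched for age, which was not given, the sample titles hold the letters Thy without spelling out an organ, and it was not stated if each library stems from its own animal. The p-values therefore measure the spread between these samples, which may be technical. In the female groups the labels did not say which X chromosome was in use in the sorted cells.

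Opposite-strand transcripts often start near the promoter of their namesake and run away from it, or overlap it in the opposite direction. A well studied pair is Xist, the noncoding RNA that coats the inactive X chromosome of female cells, and Tsix, its antisense partner. Other antisense transcripts are known to act on the gene opposite, through its chromatin, by collision of polymerases or by pairing with its RNA, while for most no function is known. In total RNA, unspliced and short-lived transcripts of this kind are counted beside messenger RNA, and a library that keeps strand is needed to tell the members of a pair apart.

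The counts could do this only in part. The library kit was a stranded one, but reads of protein-coding genes lay almost wholly in rows annotated on the plus strand: 10875 plus-strand rows held 96.7% of the protein-coding counts (95.8 to 97.2% per library), although 10907 such rows lie on the minus strand. Cd3d and Cd3e, whose proteins sit in the same T cell receptor complex, averaged 482 CPM per kb of exon for Cd3d on the plus strand and 6.07 CPM per kb for Cd3e on the minus strand. Cd4, by which the cells were sorted, is also a minus-strand gene and stood at 1.96 CPM per kb.

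Tsix on the plus strand had 188, 149 and 148 CPM in female knockout libraries, against 157, 162 and 134 CPM in female floxed libraries. In males it ran from 0.189 to 0.380 CPM in knockout and from 0.139 to 0.345 CPM in floxed libraries. Xist, on the minus strand, had 15, 15 and 17 reads in female knockout and 13, 9 and 18 reads in female floxed libraries, and none in males. The counts under the name Tsix thus had the female-specific distribution that Xist is known for. For the opposite-strand transcripts the same reading applies: a count of a plus-strand member can hold its own reads, reads of the minus-strand gene opposite wherever it overlaps the member's exons, or both, and a count of a minus-strand member can hold a small share of the reads of the plus-strand gene opposite. Which of these it holds cannot be told apart from the counts, and a difference counted under a member need not be a difference of that transcript. How the reads were assigned to strands is not given in the sources used here.

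The 75 transcripts were split accordingly, with 69 on the plus strand and 6 on the minus strand (Arhgap15os, Rsf1os2, Gimap1os, Lppos, Far1os and Ict1os). Of 148 rows named opposite strand on the plus strand, 46.6% reached the minimum, against 3.97% of 151 on the minus strand. In all 75 cases the namesake lay on the other strand, so every pair sets a plus-strand row against a minus-strand row.

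The sequences that follow belong to the 3 transcripts that later passed the test between genotypes. They are exons that share no base with an exon of another gene: the first exon of transcript Kcnmb4os2-202 (chr10:116474345-116474633, plus strand), the second exon of Kcnmb4os1-201 (chr10:116420959-116421237, plus strand) and the first exon of Gimap1os-201 (chr6:48740449-48740621, minus strand). Reads of an intron of the gene opposite could still fall in those that lie inside its body. They are given 5′ to 3′ from the GENCODE M21 transcripts on build GRCm38, a later build than the mm9 named in the submitters' processing notes. The capitals in Kcnmb4os1 mark AATAAA, the letters of the usual polyadenylation signal, found by a search for it and for ATTAAA on the strand of the transcript.
Kcnmb4os2: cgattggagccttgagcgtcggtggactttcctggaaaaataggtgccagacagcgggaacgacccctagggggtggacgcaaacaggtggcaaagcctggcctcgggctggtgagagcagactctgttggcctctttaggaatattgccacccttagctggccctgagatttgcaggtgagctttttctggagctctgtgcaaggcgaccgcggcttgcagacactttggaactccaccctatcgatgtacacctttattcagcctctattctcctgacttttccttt
Kcnmb4os1: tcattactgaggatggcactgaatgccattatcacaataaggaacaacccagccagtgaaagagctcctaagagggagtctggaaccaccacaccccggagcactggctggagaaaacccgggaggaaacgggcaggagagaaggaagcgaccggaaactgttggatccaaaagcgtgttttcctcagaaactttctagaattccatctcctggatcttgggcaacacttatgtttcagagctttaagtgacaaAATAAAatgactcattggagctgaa
Gimap1os: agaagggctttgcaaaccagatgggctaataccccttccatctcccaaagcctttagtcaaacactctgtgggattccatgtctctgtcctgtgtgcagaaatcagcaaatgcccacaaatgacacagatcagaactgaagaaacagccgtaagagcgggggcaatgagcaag

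The last sequence shows why the start of Kcnmb4os2 cannot be separated from its namesake. It runs from 250 bases before to 50 bases after the RefSeq start of Kcnmb4os2 (chr10:116472913-116473212, plus strand, GRCm38.p6), and the capitals mark the 27 bases that are also exon of Kcnmb4 when read on the other strand.
Kcnmb4os2 start: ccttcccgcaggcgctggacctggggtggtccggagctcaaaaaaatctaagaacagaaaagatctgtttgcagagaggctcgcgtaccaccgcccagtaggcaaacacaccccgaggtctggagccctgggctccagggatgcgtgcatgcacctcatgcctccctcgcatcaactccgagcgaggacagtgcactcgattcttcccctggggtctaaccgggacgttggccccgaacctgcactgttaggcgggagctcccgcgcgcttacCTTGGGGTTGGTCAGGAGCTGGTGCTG
The window holds 19 CpG dinucleotides, against a median of 7 over the 32851 windows of the RefSeq table. It was searched on both strands for TTCNNNGAA, the letters bound by STAT5, which is known to act on Foxp3 enhancers, and for GTAAACA, the forkhead motif of the family to which Foxp3 belongs. It held neither, while 8.30% of all windows held TTCNNNGAA and 3.65% held GTAAACA. No match says only that these letters are not in this window. RefSeq windows were matched for 45 of the 75 transcripts.

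Per kb of exon, plus-strand transcripts stood far above their namesakes and minus-strand transcripts far below. The 69 on the plus strand had a median level of 4.58 CPM per kb (0.227 to 100), and their 62 namesakes one of 0.0637 CPM per kb (0 to 28.01). The plus-strand transcript was the higher of the pair in 66 of 69 cases. The exceptions were Rbm3os, H3f3aos and Atad3aos, whose namesakes encode a cold-inducible RNA-binding protein, a histone H3.3 and a mitochondrial ATPase. On the minus strand the median was 0.711 CPM per kb (0.471 to 2.39) for the 6 transcripts and 39.7 CPM per kb (7.54 to 112) for their namesakes, and none of the 6 was above its namesake. The order within a pair thus followed the strand in all but 3 of the 75 pairs, as the counts of coding genes in general did, and says nothing of which transcript the cells held more of. Each transcript was also kept for its own mean of at least 0.5 CPM, while namesakes had no minimum. That choice favours the transcript, so the order in the plus-strand pairs was set in part by it.

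**Figure D1:**
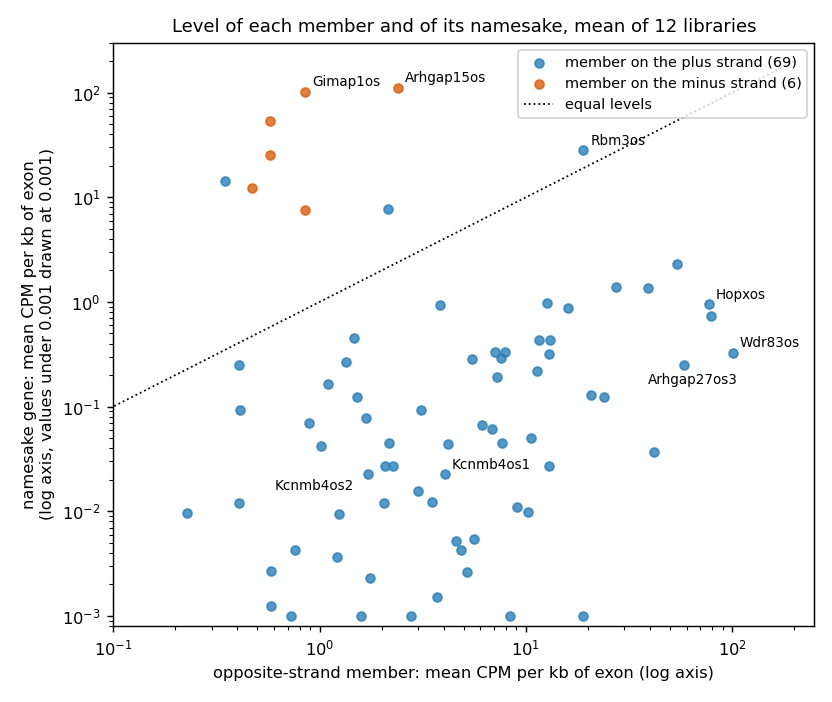
Each point is 1 of the 75 opposite-strand transcripts, placed by its own mean level over the 12 libraries (x axis, CPM per kb of exon, log axis) and by that of its namesake gene (y axis, the same unit, log axis); the dotted line marks equal levels. The 69 transcripts on the plus strand have a median of 4.58 CPM per kb and 66 of them lie below the line, while the 6 on the minus strand all lie above it. Transcripts were kept for a mean of at least 0.5 CPM, and namesakes had no minimum.

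The minus-strand transcripts had between 0.145% (Far1os) and 2.27% (Rsf1os2) of the reads of their namesakes, summed over the libraries. Arhgap15os had 0.426%, Lppos 0.274%, Ict1os 0.675% and Gimap1os 0.750%. All 6 share exonic bases with the namesake, from 2 for Ict1os, 73 for Arhgap15os, 80 for Far1os and 82 for Lppos to 1107 for Gimap1os. What part of these counts comes from the namesake's reads was not tested. Rsf1os2 stood highest in this respect, opposite Rsf1, which encodes a chromatin remodelling factor.

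Position relative to the namesake gave a second view of what the plus-strand counts can hold. Of the 69, 49 share exonic bases with the namesake, with a median of 15.6% of their exon bases, 9 lie inside its gene body without exonic overlap, and 11 lie outside it at a median gap of 269 bases. Their median levels were 5.61, 3.09 and 2.15 CPM per kb. High levels were found in each class: Wdr83os at 100 CPM per kb overlaps Wdr83, Arhgap27os3 at 58.6 CPM per kb lies inside Arhgap27 without touching its exons, and Brip1os at 23.8 CPM per kb starts 177 bases from the start of Brip1 and runs away from it. Counting all genes of the minus strand, 54 of the 69 share exonic bases with at least 1 of them and 15 with none. For those 15, exonic reads of an annotated minus-strand gene are not part of the count if the counting used the same exon bounds. The annotation used for counting is not given. Reads from introns of such a gene or beyond its annotated ends may be part of the count.

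The 6 most abundant transcripts were Arhgap27os3, Brip1os, Galnt6os, Hopxos, Ino80dos and Wdr83os, which averaged between 104 and 160 CPM. Their namesakes encode a GTPase-activating protein (Arhgap27), a DNA repair helicase (Brip1), a transferase that starts O-linked glycans (Galnt6), an atypical homeodomain protein (Hopx), a subunit of the INO80 chromatin remodeller (Ino80d) and a WD repeat protein (Wdr83). Wdr83os itself encodes a small protein of the endoplasmic reticulum known as Asterix. Hopxos was the steadiest of the 6, at 140, 116 and 148 CPM in male knockout, against 119, 142 and 132 CPM in male floxed libraries. In females it had 108, 129 and 120 CPM in knockout and 128, 126 and 124 CPM in floxed libraries. The genotypes overlapped in both sexes, and Hopx on the minus strand stayed between 0.728 and 2.29 CPM in the 12 libraries.

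The comparison of knockout with floxed libraries asked whether loss of the enhancer changed the transcripts. Over both sexes Kcnmb4os2, Kcnmb4os1 and Gimap1os fell and none rose, out of 75 tested (edgeR's quasi-likelihood test, Benjamini-Hochberg adjusted p under 0.05 over 12411 rows, on the mean of the male and the female contrast). Of all tested rows 3.31% were called, 0.637% lower and 2.68% higher. At an unadjusted p under 0.05 there were 20 of 75, of which 15 were lower. Of all 12411 rows 20.2% had such a p, 1047 rows lower and 1465 higher. The median log2 fold change of the 75 was -0.16, against -0.02 for all tested rows, and 44 of 75 (58.7%) lay below 0, against 52.3% of all rows. None of the 35 namesakes that passed the filter on low counts was called, and their median was -0.26. Of these, 29 were minus-strand rows, and 1.02% of the tested minus-strand rows other than members were called.

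Kcnmb4os2 lies opposite the first exon of Kcnmb4, the gene of an accessory subunit of the calcium-activated BK potassium channel, and shares 693 of its 2025 exon bases with it. In males it had 1.95, 2.32 and 3.34 CPM in knockout libraries, against 4.42, 4.81 and 3.76 CPM in floxed libraries. In females it had 1.39, 1.72 and 2.14 CPM in knockout libraries, against 5.34, 4.91 and 5.88 CPM in floxed libraries. The genotypes did not overlap in either sex, and the gap was wider in females. The means were 2.54 ± 0.722 CPM in male knockout and 4.33 ± 0.534 CPM in male floxed cells, and 1.75 ± 0.377 CPM in female knockout and 5.37 ± 0.485 CPM in female floxed cells (SD, n = 3 each). The fall over both sexes had a log2 fold change of -1.19, with an SE of 0.18 (edgeR adjusted p = 0.00880).

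Kcnmb4os1 lies opposite the last exon of the same gene, sharing 355 of its 824 exon bases with it. It had 2.14, 2.78 and 2.58 CPM in male knockout, against 3.73, 4.58 and 4.80 CPM in male floxed libraries. Female values were 1.81, 2.36 and 2.14 CPM in knockout, against 4.80, 4.53 and 3.80 CPM in floxed libraries. Again no knockout library reached the level of a floxed library of its sex. The fall over both sexes was -0.93 on the log2 scale, with an SE of 0.15 (edgeR adjusted p = 0.0114).

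These 2 transcripts sit at opposite ends of 1 gene, starting 55826 bases (Kcnmb4os1) and 715 bases (Kcnmb4os2) from the start of Kcnmb4, and both moved the same way. Kcnmb4 itself, on the minus strand, had 13 reads in all 12 libraries together and was not tested. It had 0 to 0.0380 CPM in male knockout and 0.0690 to 0.155 CPM in male floxed libraries, and 0.0604 to 0.0738 CPM in female knockout and 0 to 0.302 CPM in female floxed libraries, each on at most 4 reads. The falls counted under Kcnmb4os2 and Kcnmb4os1 can therefore be falls of these transcripts or of Kcnmb4 messenger RNA read on the other strand, and the counts cannot tell them apart. Nor can fewer cells of a type and less RNA per cell be told apart in these bulk libraries. The depth behind them was 23 to 96 reads per library for Kcnmb4os2 and 29 to 71 reads for Kcnmb4os1.

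Gimap1os lies on the minus strand opposite Gimap1, which encodes a GTPase needed for the survival of mature lymphocytes in mice, and shares 1107 of its 3099 exon bases with Gimap1 and the neighbouring model Gm28053. It had 1.32, 1.65 and 2.36 CPM in male knockout, against 5.17, 8.61 and 2.99 CPM in male floxed libraries. The female libraries had 1.09, 1.001 and 0.738 CPM in knockout, against 1.76, 2.49 and 2.39 CPM in floxed libraries. The genotypes did not overlap within a sex, but the male floxed libraries were spread from 2.99 to 8.61 CPM. Over both sexes it fell, at -1.43 on the log2 scale and an SE of 0.28 (edgeR adjusted p = 0.0218), on 10 to 111 reads per library.

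Gimap1 was measured on the strand that held most reads, and it varied more. It had 200, 202 and 846 CPM in male knockout, against 519, 779 and 346 CPM in male floxed libraries. In females it had 52.2, 166 and 53.3 CPM in knockout, against 116, 236 and 234 CPM in floxed libraries. The genotypes overlapped in both sexes, and the value over both sexes was -0.75 (log2, SE 0.46, edgeR adjusted p = 0.369). The reads of Gimap1os amounted to 0.278 to 2.08% of those of Gimap1. In males the share was 0.662, 0.818 and 0.278% in knockout and 0.998, 1.11 and 0.864% in floxed libraries, without overlap. In females it was 2.08, 0.604 and 1.39% in knockout and 1.52, 1.06 and 1.02% in floxed libraries, which overlap. The nearest male shares, 0.818% in knockout library 2 and 0.864% in floxed library 4, rest on 25 and 43 Gimap1os reads. Whether the share differs between genotypes was not tested.

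**Figure D2:**
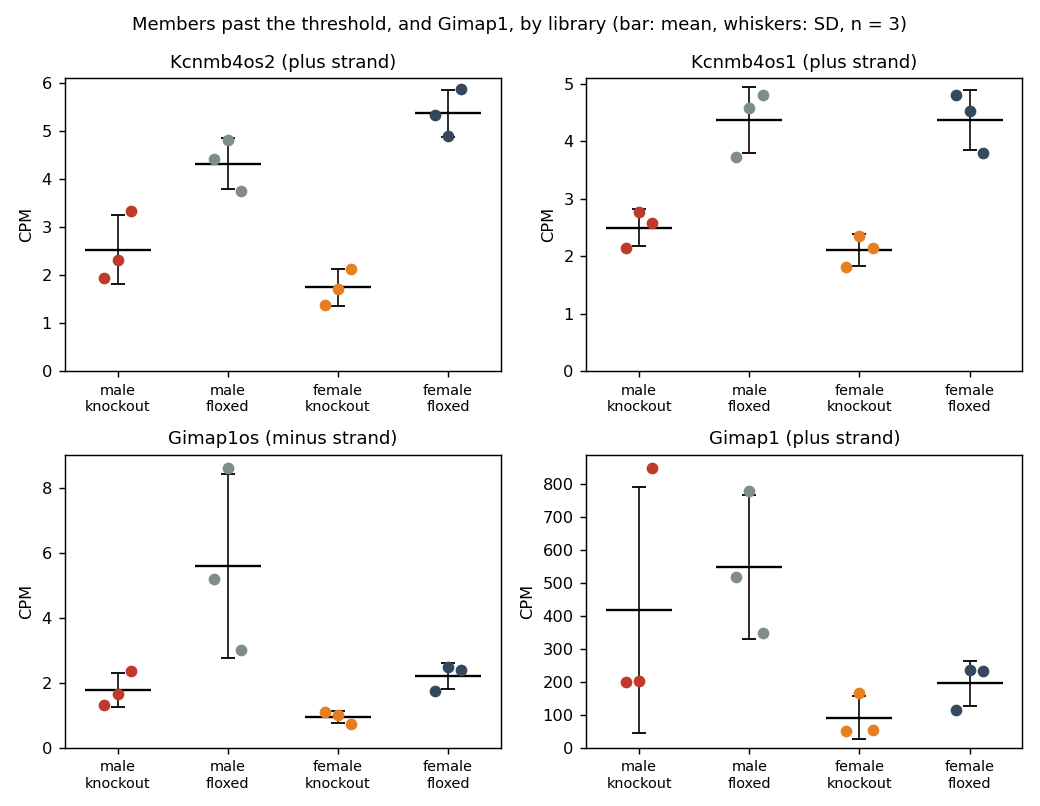
Level in CPM (y axis, from 0) of Kcnmb4os2, Kcnmb4os1, Gimap1os and the namesake Gimap1 in each library, by sex and genotype (x axis, knockout left of floxed); points are libraries, bars are means and whiskers are SD (n = 3). Within each sex the knockout points of the 3 opposite-strand transcripts lie below all floxed points, for example 1.39 to 2.14 against 4.91 to 5.88 CPM for Kcnmb4os2 in females, while those of Gimap1 overlap.

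The number of calls depended on the tool and on single libraries. DESeq2 called 10 of the 75 over both sexes, against 9.17% of its rows, and 7 in females, against 6.76%. Without female knockout library 2 edgeR called 17 over both sexes, against 22.6% of all rows, 19 in females, against 23.7%, and 7 for the difference between the sexes, against 8.5%. Without male knockout library 3 it called 7 over both sexes, against 6.11%.

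The calls differed in how they held when libraries were left out. Kcnmb4os2 and Kcnmb4os1 stayed under the threshold over both sexes without any single library. Gimap1os had edgeR adjusted p values of 0.0562 to 0.0722 without male knockout library 1 or 2, male floxed library 1, female knockout library 1 or 3, or female floxed library 2 or 3. Female knockout libraries 1 and 3 stood apart from all others on the first principal component. Without both of them, which leaves 1 female knockout library assumed to vary like the other groups, the log2 fold changes were -1.20 for Kcnmb4os2, -0.85 for Kcnmb4os1 and -1.38 for Gimap1os. The edgeR adjusted p values were then 0.0739, 0.129 and 0.190, so that none of the 75 was called while the size of the differences stayed close to that with all libraries.

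In males alone no opposite-strand transcript passed the threshold, against 3 of all tested rows (0.0242%). The smallest edgeR adjusted p was 0.162, for Gimap1os at -1.64 (log2 fold change, SE 0.38). At an unadjusted p under 0.05 there were 6 of 75, all lower in knockout. Of all 12411 rows 8.12% had such a p, 354 rows lower and 654 higher. DESeq2 called 3, against 2.33% of the rows it tested. Kcnmb4os1 stood at -0.80 (SE 0.21, edgeR adjusted p = 0.232) and Kcnmb4os2 at -0.76 (SE 0.25, edgeR adjusted p = 0.372). The other 3 were Tmem147os, Uckl1os and Arhgap27os3. Tmem147os, whose namesake encodes a membrane protein of the endoplasmic reticulum, had 5.47, 7.81 and 6.42 CPM in male knockout, against 12.5, 9.16 and 9.67 CPM in male floxed libraries. These do not overlap, and the log2 fold change was -0.67 (SE 0.21, edgeR adjusted p = 0.319).

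In heterozygous females 1 of the 75 was called, Kcnmb4os2, which fell (-1.62, SE 0.26, edgeR adjusted p = 0.0426), against 0.201% of all rows called and 0.0161% called lower. Kcnmb4os1 stood at -1.05 (SE 0.21, edgeR adjusted p = 0.0718) and Gimap1os at -1.22 (SE 0.40, edgeR adjusted p = 0.180). Leaving out any 1 library kept the female log2 fold change of Kcnmb4os2 between -1.79 and -1.49, while its edgeR adjusted p was 0.0613 to 0.239 without male knockout library 1 or 2, male floxed library 1 or 2, female knockout library 1 or 3 or any of the 3 female floxed libraries. At an unadjusted p under 0.05 there were 18 of 75, of which 15 were lower. Of all 12411 rows 19.2% had such a p, 1158 rows lower and 1220 higher. The median was -0.18 in females and -0.08 in males, beside -0.02 and 0.01 for all rows.

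Fam120aos had the lowest female value, -2.21 on the log2 scale (SE 0.64, edgeR adjusted p = 0.143). It starts 270 bases from Fam120a, the gene of an RNA-binding protein, runs away from it and shares no exonic base with any minus-strand gene. It had 0.181, 0.715 and 0.295 CPM in female knockout (3, 10 and 4 reads), against 1.28, 2.27 and 1.96 CPM in female floxed libraries, which do not overlap. In males it had 1.51, 3.18 and 5.20 CPM in knockout and 5.17, 7.99 and 2.64 CPM in floxed libraries, which do. Over both sexes it stood at -1.43 (SE 0.42, edgeR adjusted p = 0.0916). It was called without male knockout library 3 (edgeR adjusted p = 0.0436, 6.11% of all rows called) or female knockout library 2 (0.0172, 22.6% of all rows called). Fam120a, a minus-strand row with 5 to 20 reads per library, stood at 0.07 (SE 0.34, edgeR adjusted p = 0.917). At that depth and on that strand, this value cannot show whether the gene followed.

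Brip1os was the transcript with the highest level among those that leaned upward. It had 218, 159 and 202 CPM in female knockout, against 146, 130 and 136 CPM in female floxed libraries, without overlap. In males it had 161, 168 and 138 CPM in knockout and 131, 122 and 148 CPM in floxed libraries, which overlap. The log2 fold change was 0.49 in females (SE 0.14, edgeR adjusted p = 0.142) and 0.35 over both sexes (SE 0.10, edgeR adjusted p = 0.0841). Over both sexes it was called without male knockout library 3 (edgeR adjusted p = 0.0470) or female knockout library 2 (0.00697). In these fits 6.11% and 22.6% of all rows were called. Brip1os shares exonic bases with Med13 and Ints2 on the minus strand, and not with Brip1, which stood at 0.75 (SE 0.24, edgeR adjusted p = 0.122).

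Galnt6os was lowest in female knockout libraries 1 and 3. It had 40.4, 155 and 63.3 CPM in female knockout, against 169, 183 and 194 CPM in female floxed libraries. In males it had 158, 133 and 172 CPM in knockout, against 215, 194 and 184 CPM in floxed libraries. The genotypes did not overlap in either sex, yet female knockout libraries 1 and 3 lay far below the rest, and the value over both sexes was -0.72 (log2, SE 0.27, edgeR adjusted p = 0.174). Galnt6, with which it shares 441 exon bases, had 0.905, 2.72 and 1.25 CPM in female knockout, against 3.85, 4.76 and 4.41 CPM in female floxed libraries, the same order of libraries 1 to 3 within the knockout group. Without female knockout library 2, Galnt6os was called over both sexes at -1.07 (edgeR adjusted p = 0.00149), in a fit where 22.6% of all rows were called. Without female knockout libraries 1 and 3 it stood at -0.30 over both sexes (edgeR adjusted p = 0.294) and at -0.23 in females.

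The other abundant transcripts differed little. Arhgap27os3 had 128, 136 and 145 CPM in male knockout, against 172, 177 and 164 CPM in male floxed libraries, which do not overlap, and stood at -0.23 over both sexes (SE 0.08, edgeR adjusted p = 0.133). Ino80dos had 164, 124 and 149 CPM in female knockout, against 127, 107 and 116 CPM in female floxed libraries, which overlap, and stood at 0.17 (SE 0.10, edgeR adjusted p = 0.343). Its female value was called without female knockout library 2 (0.43, edgeR adjusted p = 0.0352), in a fit where 23.7% of all rows were called. Wdr83os stood at 0.19 (SE 0.11, edgeR adjusted p = 0.342) and Hopxos at -0.02 (SE 0.09, edgeR adjusted p = 0.902). Their namesakes, all minus-strand genes with mean levels of 0.657 to 1.62 CPM, stood at -0.71 (Arhgap27), -0.62 (Ino80d), 0.14 (Wdr83) and 0.24 (Hopx), none past the threshold. Arhgap27 was called without female knockout library 2 (-1.09, edgeR adjusted p = 0.00560), where 22.6% of all rows were called over both sexes.

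**Figure D3:**
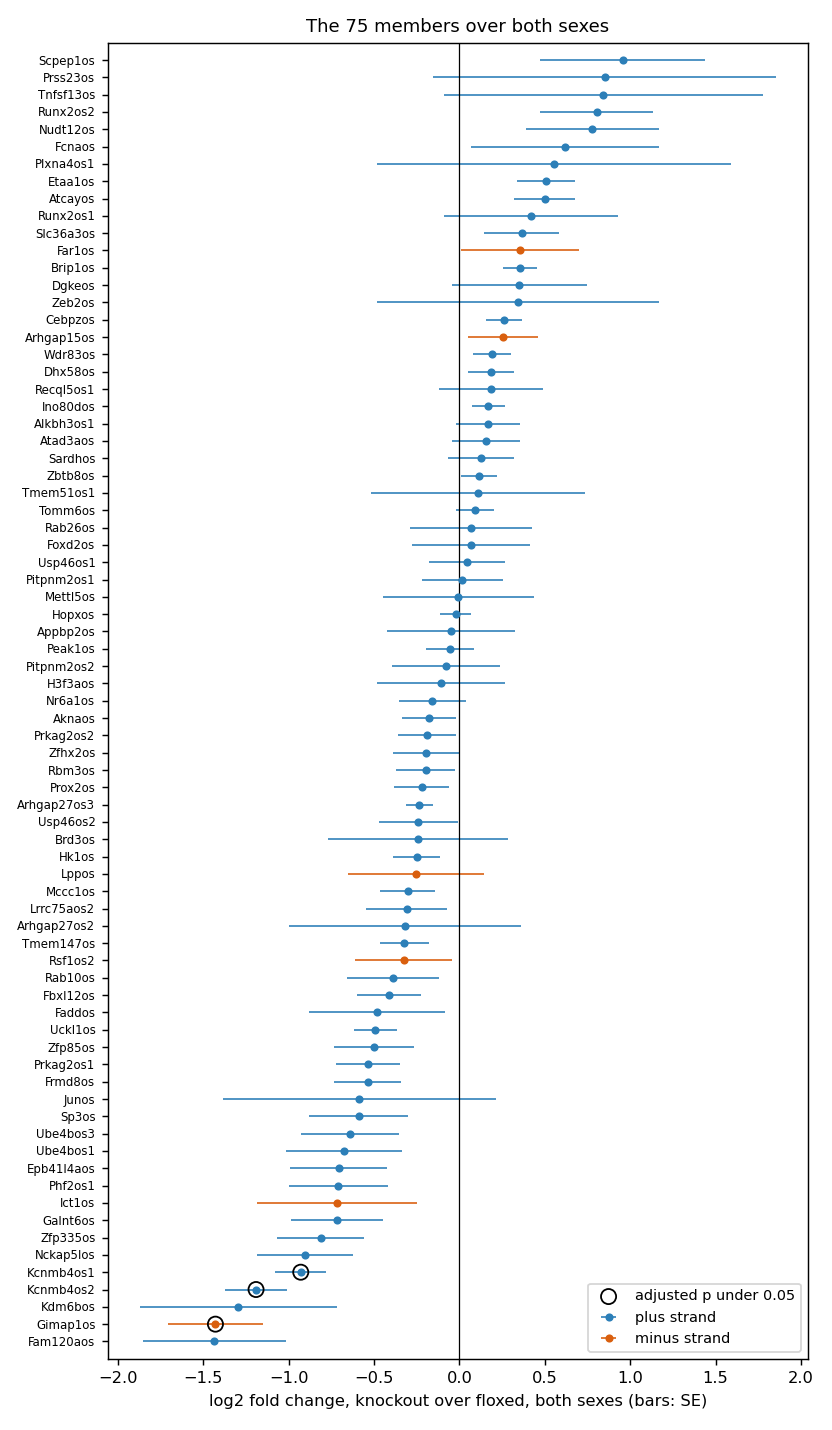
Log2 fold change over both sexes, knockout over floxed (x axis), of each of the 75 opposite-strand transcripts (y axis, ordered by value); points are estimates, bars SE, colours the strand and circles mark an edgeR adjusted p under 0.05. The values run from -1.43 (Fam120aos) to 0.96 (Scpep1os), and the 3 circled ones, Gimap1os, Kcnmb4os2 and Kcnmb4os1, are among the 5 lowest.

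No transcript differed between the female and the male contrast after adjustment, nor did any of the 12411 rows (0.0%), with edgeR adjusted p values of at least 0.892 for the 75. At an unadjusted p under 0.05 there were 2 of 75, against 2.73% of all rows. For Kcnmb4os2 the female contrast was -1.62 and the male one -0.76, a difference of -0.86 (SE 0.36, edgeR adjusted p = 0.892). For Tmem147os the female contrast was 0.03 and the male one -0.67, a difference of 0.70 (SE 0.29, edgeR adjusted p = 0.892). The 2 contrasts had the same sign in 51 of 75 transcripts, 30 below 0 and 21 above.

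**Figure D4:**
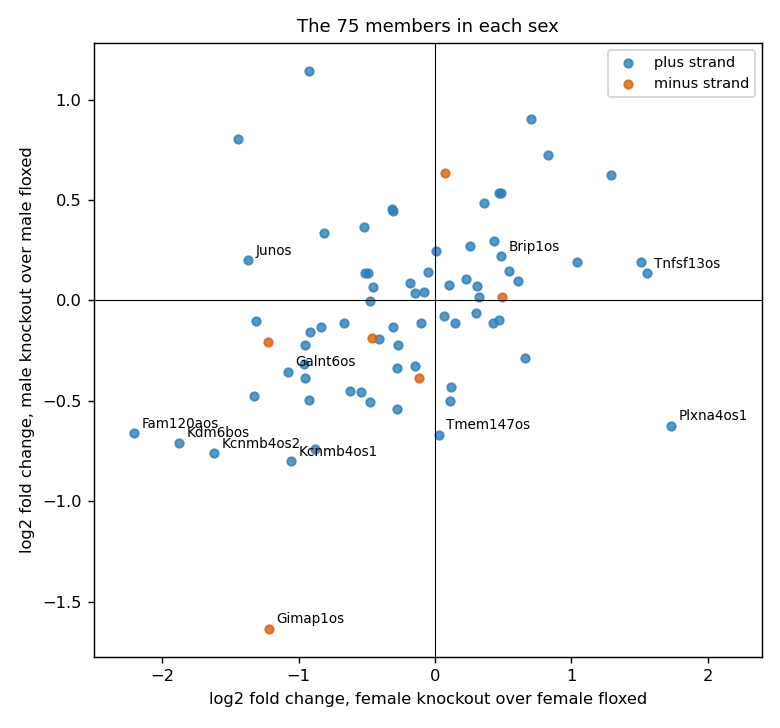
Log2 fold change of each of the 75 transcripts in females (x axis, knockout over floxed heterozygotes) and in males (y axis, knockout over floxed), coloured by strand. Of the 75 points 30 lie below 0 on both axes, among them Kcnmb4os2 at -1.62 and -0.76 and Gimap1os at -1.22 and -1.64, and Plxna4os1 lies farthest to the right at 1.73 and -0.63.

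Counting transcripts whose libraries did not overlap between genotypes, 8 were lower and 3 higher in male knockout, where 6.13% and 8.2% of all rows did so. In females 14 were lower and 6 higher, against 9.7% and 15.3% of all rows. In both sexes 5 were lower, Galnt6os, Uckl1os, Kcnmb4os2, Kcnmb4os1 and Gimap1os, against 1.78% of all rows, and 1 was higher, Etaa1os, against 3.97%. Uckl1os, opposite a gene of a uridine-cytidine kinase family member, had 15.3, 15.1 and 19.4 CPM in male knockout, against 20.1, 25.3 and 25.5 CPM in male floxed libraries. Among females there were 13.8, 16.7 and 14.6 CPM in knockout, against 22.2, 18.5 and 22.2 CPM in floxed libraries. Over both sexes it stood at -0.49 (log2, SE 0.13, edgeR adjusted p = 0.0631), just short of the threshold. Etaa1os, opposite a gene whose protein activates the ATR kinase, had 2.96, 2.65 and 2.77 CPM in male knockout, against 2.21, 1.47 and 2.09 CPM in male floxed libraries. The female values were 3.98, 2.86 and 2.88 CPM in knockout, against 2.16, 2.79 and 2.02 CPM in floxed libraries, and it stood at 0.51 over both sexes (SE 0.17, edgeR adjusted p = 0.135).

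The remaining transcripts are given by what their namesakes do, with log2 fold changes over both sexes, and none passed the threshold. Opposite genes of transcription and chromatin lay Junos, Sp3os, Runx2os1, Runx2os2, Zeb2os, Prox2os, Foxd2os, Zfhx2os, Nr6a1os, Zfp335os, Zfp85os, Aknaos, Kdm6bos, Phf2os1, H3f3aos, Brd3os and Rsf1os2. Their values ran from -1.29 for Kdm6bos, opposite a histone H3 lysine demethylase, to 0.80 for Runx2os2, opposite a Runt family factor. Opposite genes of small GTPases, metabolic and lipid kinases, lipid transfer, receptors, cell death and immunity lay Rab10os, Rab26os, Arhgap15os, Arhgap27os2, Prkag2os1, Prkag2os2, Dgkeos, Hk1os, Pitpnm2os1, Pitpnm2os2, Faddos, Tnfsf13os, Plxna4os1, Fcnaos, Dhx58os and Peak1os. These ran from -0.53 for Prkag2os1, opposite a subunit of the energy sensor AMPK, to 0.84 for Tnfsf13os, opposite the gene of the B cell cytokine APRIL.

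Opposite genes of the ubiquitin system, Ube4bos1, Ube4bos3, Usp46os1, Usp46os2 and Fbxl12os ran from -0.67 (Ube4bos1) to 0.04 (Usp46os1). Those tied to DNA repair or RNA, Alkbh3os1, Recql5os1, Mettl5os, Rbm3os and Zbtb8os, ran from -0.20 (Rbm3os) to 0.18 (Recql5os1); Zbtb8os itself encodes archease, a cofactor of tRNA ligation. Opposite genes of mitochondria, metabolism, transport and proteolysis, Tomm6os, Mccc1os, Atad3aos, Sardhos, Ict1os, Nudt12os, Far1os, Slc36a3os and Scpep1os ran from -0.71 (Ict1os) to 0.96 (Scpep1os). The rest, Atcayos, Appbp2os, Cebpzos, Epb41l4aos, Frmd8os, Lppos, Lrrc75aos2, Nckap5los, Prss23os and Tmem51os1, ran from -0.90 (Nckap5los) to 0.85 (Prss23os).

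The transcripts differed widely in how much they varied between libraries. The ratio of the highest to the lowest library had a median of 4.23, was under 2 for 13 transcripts and over 10 for 11, and Tmem51os1 and Arhgap27os2 each had a library with no read. That ratio was 88.0 for Prss23os, 86.2 for Plxna4os1, 70.7 for Kdm6bos and 64.2 for Junos, opposite Jun, a subunit of the AP-1 transcription factor. The lowest library held 1 read for Prss23os, 1 for Plxna4os1 and 3 for Kdm6bos, so their ratios are uncertain. For Junos it held 49 reads. Junos had 23.1, 9.66 and 190 CPM in male knockout and 58.9, 117 and 18.8 CPM in male floxed libraries. In females it had 2.96, 22.7 and 3.69 CPM in knockout and 10.6, 28.7 and 36.5 CPM in floxed libraries. The genotypes overlapped in both sexes, and its log2 fold change of -0.59 over both sexes had an SE of 0.80 (edgeR adjusted p = 0.693). Kdm6bos had a like order, with 2.26, 3.24 and 10.4 CPM in male knockout and 8.42, 12.8 and 5.15 CPM in male floxed libraries. Female libraries had 0.181, 2.43 and 0.443 CPM in knockout and 2.23, 4.83 and 4.10 CPM in floxed libraries. Both were highest in male knockout library 3 or male floxed library 2 and lowest in female knockout libraries 1 and 3.

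Libraries had 12423335 to 30244505 gene counts, most in male knockout library 3, and the 75 transcripts together made up 1414 to 1633 CPM. The first principal component, with 53.8% of the variance, placed female knockout libraries 1 and 3 at 87.0 and 81.3, beside 11.48 for female knockout library 2. The lowest positions on it were -65.9 (male knockout 3), -60.5 (male floxed 2) and -39.6 (male floxed 1). The share of counts in genes of the mitochondrial genome was 4.04, 2.77 and 3.40% in the 3 female knockout libraries, against 2.64, 2.37 and 2.27% in the female floxed ones. In males it was 2.69, 2.59 and 1.17% in knockout, against 2.05, 1.80 and 1.61% in floxed libraries. Foxp3 had 685, 1824 and 825 CPM in female knockout, against 2582, 2658 and 2657 CPM in female floxed libraries. In males it had 1878, 1462 and 2037 CPM in knockout, against 2675, 2588 and 2227 CPM in floxed libraries, and over both sexes it stood at -0.86 (SE 0.22, edgeR adjusted p = 0.0600). The 10 Treg marker genes summed to 7976 to 10205 CPM in male knockout, 8603 to 9341 CPM in male floxed, 8649 to 10813 CPM in female knockout and 9653 to 9842 CPM in female floxed libraries.

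The 2 lowest of the 12 libraries were female knockout 1 and 3 in 23 of the 75 transcripts, against 25.4% of all rows, among them Galnt6os, Junos, Kdm6bos, Fam120aos, Faddos and Epb41l4aos. Faddos, for instance, had 0.664, 4.07 and 0.664 CPM in female knockout, against 2.90, 3.70 and 2.999 CPM in female floxed libraries. They were the 2 highest in 7 of the 75, against 14.9% of all rows, among them Brip1os and Ino80dos. Kcnmb4os2, Kcnmb4os1 and Gimap1os were in neither set: their female knockout library 2 lay with the other two. Without libraries 1 and 3 the female log2 fold changes were -1.64 for Kcnmb4os2, -0.88 for Kcnmb4os1 and -1.14 for Gimap1os. For transcripts lowest or highest in libraries 1 and 3, the genotype in females cannot be told apart from what sets these libraries apart.

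Libraries also differed in macrophage genes. The summed level of 5 of them (Adgre1, Csf1r, Mrc1, Timd4 and Mpeg1) was highest in female knockout library 3 (1473 CPM), male knockout library 2 (1265 CPM) and male floxed library 4 (1200 CPM), and lowest in male floxed library 1 (85.3 CPM). Of the 75 transcripts, 4 had these as their 3 highest libraries, Scpep1os, Tnfsf13os, Zeb2os and Plxna4os1, as did 2.6% of all rows. Tnfsf13os had 0.189, 11.3 and 2.17 CPM in male knockout and 0.414, 0.698 and 11.2 CPM in male floxed libraries. Zeb2os, opposite a transcription factor gene active in macrophages, had 0.503, 6.22 and 1.71 CPM in male knockout and 0.414, 0.155 and 6.95 CPM in male floxed libraries. In each, 1 male library of either genotype stood well above the other two. In females Tnfsf13os had 1.63, 2.86 and 3.61 CPM in knockout and 1.55, 0.378 and 0.796 CPM in floxed libraries, without overlap, and Zeb2os 1.39, 2.57 and 4.28 CPM in knockout and 2.77, 0.755 and 2.08 CPM in floxed libraries, which overlap. Fcnaos, opposite ficolin A, a plasma lectin made by macrophages in mice, ran from 2.41 CPM in male floxed library 1 to 60.9 CPM in female knockout library 3.

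The whole list of 16 myeloid and dendritic markers summed to 227 to 1717 CPM in male knockout, 102 to 1588 CPM in male floxed, 819 to 1616 CPM in female knockout and 264 to 1099 CPM in female floxed libraries. None of its 10 tested genes was called, and their median log2 fold change was 0.77 over both sexes, 1.09 in females and 0.32 in males. Xcr1 and Zbtb46 had no read in the female knockout libraries, nor in the female floxed ones, where Flt3 had none either, and Cd68 had none in the male floxed libraries. The part of such cells in the levels of these transcripts was not tested. With male knockout library 2 and male floxed library 4 left out, Kcnmb4os2, Kcnmb4os1 and Gimap1os were called over both sexes (edgeR adjusted p = 0.0252, 0.0361 and 0.0190). That fit kept female knockout library 3, with the highest macrophage sum (1473 CPM), so it does not test the part of such cells. Macrophage genes were not the only ones to vary. The 8 genes listed for double-positive (CD4+CD8+) thymocytes summed to 474, 339 and 762 CPM in female knockout libraries 1, 2 and 3, against 319 to 435 CPM in female floxed ones. In males they summed to 215 to 427 CPM in knockout and 208 to 401 CPM in floxed libraries. The part of these thymocytes was not tested either.

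**Figure D5:**
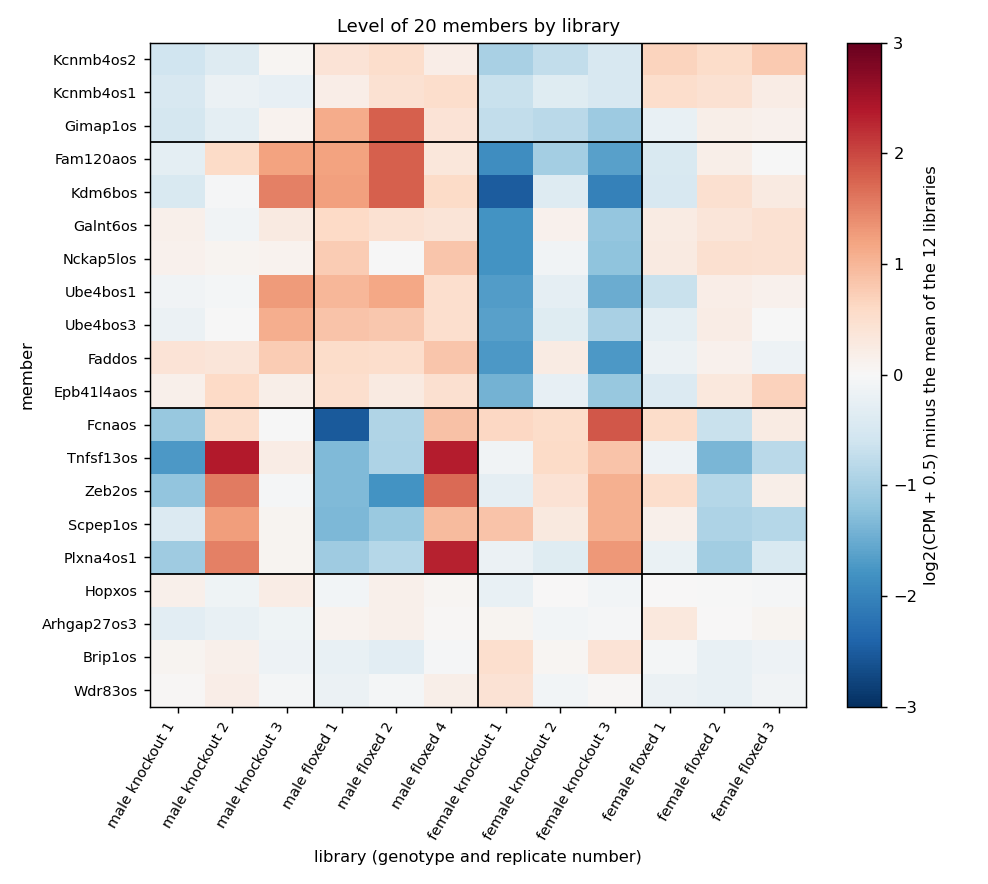
Level of 20 opposite-strand transcripts (rows) in the 12 libraries (columns, knockout left of floxed within each sex) as log2(CPM + 0.5) minus the mean of the 12 libraries (colour, from -3 in blue to 3 in red). The top rows are the 3 called transcripts, then 8 low in female knockout libraries 1 and 3. Below them are Fcnaos and the 4 whose 3 highest libraries had the highest macrophage gene sums (1473 CPM in female knockout library 3). Last are 4 of the most abundant ones, Hopxos, Arhgap27os3, Brip1os and Wdr83os. Their ratio of the highest to the lowest library was between 1.36 (Hopxos) and 1.78 (Brip1os).

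By position, the 15 plus-strand transcripts with no exonic base shared with a minus-strand gene had a median log2 fold change of 0.02 over both sexes, 7 of 15 below 0, and none was called. The 54 that share such bases had a median of -0.19, 33 of 54 below 0, and 2 were called. The 6 on the minus strand had a median of -0.29, with 1 called. For other tested rows the median was -0.0039 on the plus strand, where 4.01% were called, and -0.09 on the minus strand, where 1.02% were called.

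Other noncoding RNA gave a measure of how common such changes were. Of 33 named long noncoding RNA genes with a row, 16 were tested, and 1 rose over both sexes: Pvt1, a neighbour of Myc, at 0.40 (SE 0.09, edgeR adjusted p = 0.0468). Airn, a plus-strand row that runs antisense to the imprinted Igf2r gene, stood at -0.37 (SE 0.13, edgeR adjusted p = 0.138). As with the plus-strand members, its count can hold reads of the gene opposite where the exons overlap. Malat1, on the minus strand here at 2.97 CPM, stood at -0.29 (SE 0.21, edgeR adjusted p = 0.438). The median of the 16 was -0.11. Of 4 rows named as antisense of a gene by the letters as, 1 was tested, Znrd1as, at 0.19 (SE 0.23, edgeR adjusted p = 0.661).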

How the data were processed

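RNA was measured in 12 libraries of sorted Treg cells, in 4 groups of 3. Libraries were made with SMARTer Stranded RNA-Seq kits (Takara) from TRIzol-extracted total RNA, per the labels' protocols. The values are raw read counts per gene symbol, deposited without normalization and made on mm9 with HTSeq 0.6.1p1, STAR 2.3.0e, STAR 2.5.2b and CASAVA, per the submitters' processing notes, which give no role for each tool. Annotation and strand setting are not given in the sources used here. The 5 HTSeq summary entries stayed out of library sizes and tests: of all reads, 44.3 to 46.9% were in no feature, 14.1 to 17.3% not unique, 4.73 to 8.01% not aligned and 0.584 to 0.678% ambiguous.

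The minimum of 0.5 used CPM on total gene counts, and printed levels use CPM on library sizes adjusted by trimmed mean of M-values (TMM). Strand, exons and type came from GENCODE M21 on GRCm38 by symbol (54510 of 55453 rows). Namesakes by older symbol came from the RefSeq gene table, within 200000 bases on the other strand, since no table held descriptions. edgeR 4.0.16 in R 4.3.3 with filterByExpr on the 4 groups tested 12411 of 29806 rows with reads, including all 75 transcripts and 35 of 68 namesakes. A robust quasi-likelihood fit had 1 mean per group, with Benjamini-Hochberg adjustment over all tested rows and a threshold of 0.05. On simulated counts with 200 changed rows it recovered 10.4% of 2-fold changes in males, 11.9% in females and 22.4% over both sexes. For 4-fold changes the shares were 48.5, 50.0 and 74.2%, so a transcript not called may still have changed. Log2 fold changes are knockout over floxed.

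Transcripts given in full were those past the threshold, the 6 with the highest mean CPM and the 4 with the smallest p in each sex; Etaa1os, Uckl1os, Junos, Kdm6bos, Faddos and those that followed macrophage genes were chosen after their values were seen. Members, lists and alternatives were chosen with earlier results of these data known. Alternatives were RLE size factors, no low-count filter, DESeq2 1.42.0, the replicate number as a block, plus-strand rows alone, each library left out in turn and 2 pairs of libraries left out. Replicates differed beyond counting noise (chi-square per degree of freedom 4.82 to 149). Genes that overlap on either strand are uncertain. Figures used matplotlib 3.10.9.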

Additional observations from a re-analysis of the deposited data

How the results depend on the processing

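Over 19 alternatives the log2 fold change over both sexes ran from -1.37 to -1.11 for Kcnmb4os2 and from -0.99 to -0.85 for Kcnmb4os1, and over 18 from -1.69 to -1.20 for Gimap1os (edgeR or DESeq2 adjusted p from 8.23e-07 to 0.0739, from 8.48e-06 to 0.129 and from 3.55e-04 to 0.190). The number of transcripts called over both sexes was 10 with DESeq2, 10 with the replicate block (9.81%), 0 without female knockout libraries 1 and 3, and 2 to 17 with a library left out, 17 without female knockout library 2 and 7 without male knockout library 3. In females it was 0 with RLE size factors, 7 with DESeq2, 0 with the replicate block, 0 without female knockout libraries 1 and 3, 0 with male knockout library 2 and male floxed library 4 left out, and 0 to 19 with a library left out, 19 without female knockout library 2. In males DESeq2 called 3. The difference between the sexes had 0 to 7 calls with a library left out, 7 without female knockout library 2. The cause of these moves was not tested. Kcnmb4os2 in females had an edgeR adjusted p of 0.0507 with RLE size factors and 0.102 with the block. The replicate numbers did not pair the samples (correlations of same-numbered deviations 0.442 and -0.614 in males, and 0.189, 0.279 and -0.225 in females), so the block shows a number the samples share and no more. With the replicate block the male value was -0.030 for Hopxos and -0.019 for Ino80dos, both with the sign turned. Ino80dos was -0.0064 in males on plus-strand rows alone and -0.055 with male knockout library 2 and male floxed library 4 left out. Without female knockout libraries 1 and 3, Hopxos was 0.036 in females and 0.036 over both sexes, and Tmem147os -0.23 in females. Hopxos was 0.044 over both sexes with male knockout library 2 and male floxed library 4 left out. With a library left out, signs also turned for Hopxos (-0.021 to 0.14 in males, -0.054 to 0.034 over both), Ino80dos in males (-0.064 to 0.089), Tmem147os in females (-0.088 to 0.14), and over both sexes for Wdr83 (-0.065 to 0.42) and Fam120a (-0.085 to 0.26), none of them called. At a minimum mean of 1 CPM there were 65 transcripts. With the minimum kept at 0.5 CPM but taken on TMM-adjusted library sizes, there were 75. With 10 to 111 reads a library for the 3 called transcripts, depth limits what can be seen below that level.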
